A study of Gallus gallus with 6 samples.

Results

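Of 4 miRNA families known from stromal and smooth muscle cells, miR-143, miR-145, miR-199 and miR-214, the table of mature miRNAs from broiler abdominal fat held 3 rows. They are both arms of miR-199, gga-miR-199-5p and gga-miR-199-3p, and gga-miR-214, whose name gives no arm. The rows were found by their family number, with both arms taken, among 667 rows, and all 3 passed the filter on low counts that left 238 miRNAs to be tested. No row carried the name of miR-143 or miR-145, so those 2 families are not analysed here. A further 116 rows are predicted miRNAs without a family name, which were not matched to any family because no sequences were used.

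The tissue was abdominal fat, taken at day 35 from broilers (Gallus gallus). Of the 6 libraries, 3 are labelled with 50 IU of vitamin E (DL-α-tocopherol acetate) and 3 as control, from a study that fed 240 female chicks 1 of 5 diets with 0 to 100 IU. The dose of the control diet is not printed beside its libraries. The labels name no strain, and nothing says whether a library is 1 bird or a pool, and separate birds are not stated, so a p-value here refers to the scatter among these libraries, part or all of which could be technical.

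A miRNA is cut from a hairpin precursor, and either arm of the hairpin, named 5p and 3p by its position, can be loaded into the silencing complex to repress transcripts. In mammals miR-199a and miR-214 are made from one long transcript that runs antisense within the dynamin 3 gene, and both are typical of mesenchymal cells such as fibroblasts, pericytes and preadipocytes, where they have been studied in fibrosis. miR-143 and miR-145 likewise share a transcript and mark smooth muscle of vessel walls. These families are therefore grouped here as miRNAs of the stroma and vessel walls. Other cells of fat as a source were not tested. In whole tissue, fewer cells of a type and less RNA per cell cannot be told apart.

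The chicken gene table of RefSeq, assembly GRCg7b, likewise places these genes at dynamin genes. MIR199A2 and MIR214 both overlap DNM3 and lie within 10 kb of each other. MIR199B1 overlaps DNM1, encoding a related dynamin, and a further gene, MIR199B, overlaps CEP85L. MIR214B overlaps MIR214. MIR143 and MIR145 lie within 10 kb of each other as well and overlap the locus LOC112533410. The rows carry no letter to tell the miR-199 genes apart, and the sources used here do not say how reads shared between genes were counted. Outside the members, the rows of miR-219a and miR-219b had the same mean and SD in each group. A read may thus have been counted in more than 1 row. The identity of the miR-214 reads is likewise uncertain, since MIR214 and MIR214B overlap.

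Library totals ran from 5028671 to 7357204 counts. The markers of other cell types, summed in each library and scaled so that all its counts make 1e+06 (CPM), ran from 22004 to 30537 for the endothelial miRNA miR-126, from 29714 to 51251 for 10 leukocyte rows and from 1452 to 5580 for 3 erythroid rows. The 9 striated muscle rows summed to 278 to 612 CPM, the 9 epithelial rows to 279 to 433 and both arms of the liver miRNA miR-122 to 5.30 to 20.9. Of the smooth muscle list (miR-143, miR-145 and miR-490), only miR-490 had rows, and these summed to 1.80 to 12.6 CPM. No list held a marker restricted to fat cells.

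miR-199-3p was among the most abundant miRNAs of the tissue. This arm is known in mammals to repress mTOR and the receptor MET. It took 6.005%, 6.002% and 6.50% of the counts in vitamin E 1, 2 and 3, and 4.98%, 5.08% and 8.75% in control 1, 2 and 3. It ranked 4 to 6 among all rows in every library. The vitamin E libraries lay close together, and the controls spread to both sides of them.

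miR-199-5p, studied in human fibroblasts as a repressor of caveolin-1, was counted far less often. It took 0.720%, 0.440% and 0.824% of all counts with vitamin E and 0.531%, 0.543% and 0.387% in the controls, at rank 21 to 31. The highest values were those of vitamin E 3 and vitamin E 1, but vitamin E 2 lay below control 1 and control 2.

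miR-214, studied in mice as an inhibitor of bone formation, was the rarest of the 3 and the most variable. It took 0.0898%, 0.0683% and 0.141% of all counts with vitamin E and 0.104%, 0.0309% and 0.0626% in the controls. The lowest of these values, in control 2, rests on 1556 counts, with a 95% Wilson interval of 0.0294% to 0.0325%, so counting error is small beside the differences between libraries. Its rank was 45 in vitamin E 3 and 74 in control 2, with the other libraries between them.

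Together the 3 rows held 6.93% ± 0.487 of all counts in the vitamin E group and 6.82% ± 2.06 in control (SD, n = 3; two-sided exact permutation p = 1). With vitamin E the sum was 6.81%, 6.51% and 7.46%, and the controls had 5.62%, 5.65% and 9.20%. The sign of the difference in the sum rested on single libraries: it was 0.106 percentage points with all 6, 1.29 without control 3 and -0.496 without control 1.

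**Figure D1:**
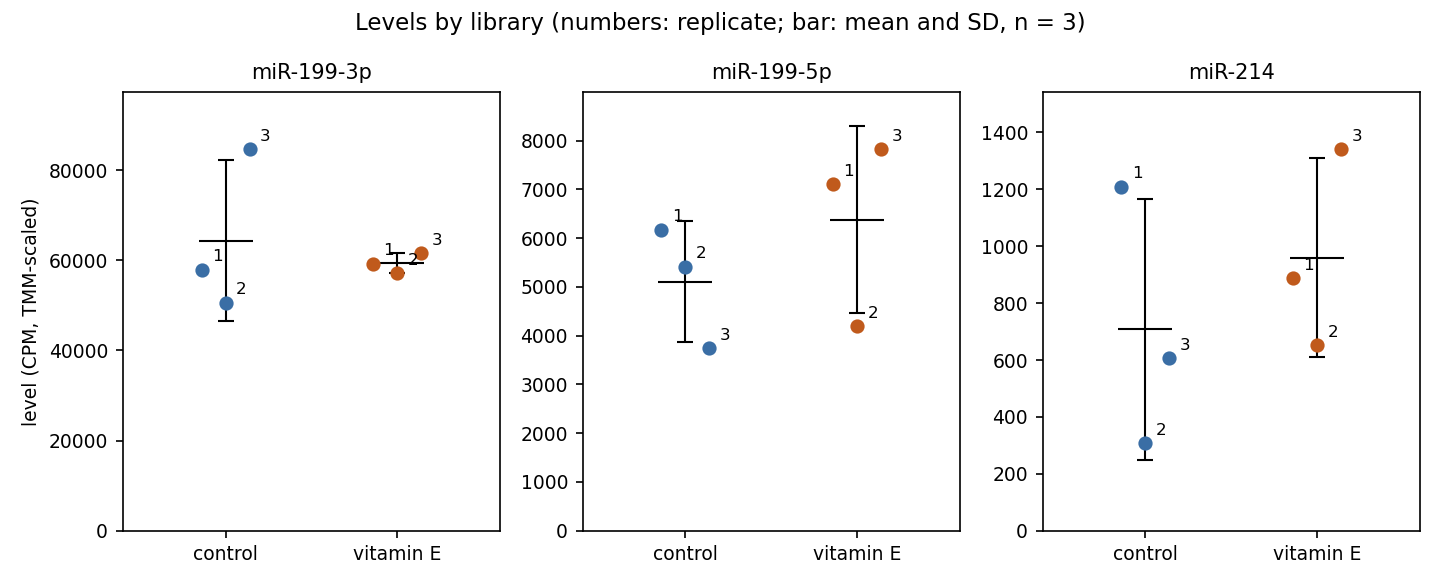
Level of each miRNA (y axis, CPM on TMM-scaled library sizes) in the 3 control and 3 vitamin E libraries (x axis); each point is a library with its replicate number, and bars give the mean and SD. In each panel the groups overlap: control 3 is the highest library for miR-199-3p and the lowest for miR-199-5p, and control 2 is the lowest for miR-214.

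The comparison of vitamin E with control asks whether any of these miRNAs differed with the supplement. None of the 3 passed edgeR's quasi-likelihood test, and for none did the groups stand apart. For comparison, 1 of the 238 tested miRNAs (0.42%) passed the threshold of 0.05 on the Benjamini-Hochberg adjusted p, 7.56% had an unadjusted p under 0.05, and the groups did not overlap for 13.9%. The 1 miRNA that passed was miR-9-5p, a miRNA of the nervous system, which rose to 148 ± 8.81 CPM from 31.5 ± 9.44 in control (SD, n = 3; log2 fold change 2.24, SE 0.35, edgeR adjusted p = 0.0396). That call held without control 1 but not without any of the other 5 libraries, nor with upper-quartile factors.

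On library sizes scaled by TMM, a method that balances the bulk of the miRNAs between libraries, miR-199-3p stood at 59282, 57216 and 61653 CPM with vitamin E and at 57922, 50578 and 84662 CPM in control. The vitamin E values lay within the range of the controls, and control 3 was the 1 library far above the rest. The means were 59384 ± 2221 and 64387 ± 17938 CPM (SD, n = 3). The log2 fold change of vitamin E over control was -0.12 (SE 0.24, 95% interval -0.66 to 0.42; edgeR adjusted p = 0.899), and it was 0.095 without control 3.

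miR-199-5p stood at 7108, 4195 and 7821 CPM with vitamin E and at 6171, 5410 and 3745 CPM in control. Of the vitamin E libraries 2 were above all controls, and vitamin E 2 was above control 3 alone. The means were 6375 ± 1921 and 5109 ± 1241 CPM (SD, n = 3). Vitamin E over control gave a log2 fold change of 0.32 (SE 0.32, 95% interval -0.40 to 1.04; edgeR adjusted p = 0.824), falling to 0.088 without vitamin E 3 and to 0.11 without control 3.

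miR-214 stood at 887, 651 and 1341 CPM with vitamin E and at 1209, 308 and 606 CPM in control. Its controls differed by 3.92-fold between the highest and the lowest, and the vitamin E libraries by 2.06-fold. The means were 960 ± 351 and 708 ± 459 CPM (SD, n = 3). For miR-214 the log2 fold change came to 0.44 (SE 0.49, 95% interval -0.69 to 1.57; edgeR adjusted p = 0.842). It moved between 0.042 without vitamin E 3 and 0.98 without control 1, and was 0.14 without control 2.

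The 95% intervals give the fold changes that these data leave possible. They run from 0.635-fold to 1.34-fold for miR-199-3p, from 0.757-fold to 2.06-fold for miR-199-5p and from 0.621-fold to 2.96-fold for miR-214.

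**Figure D2:**
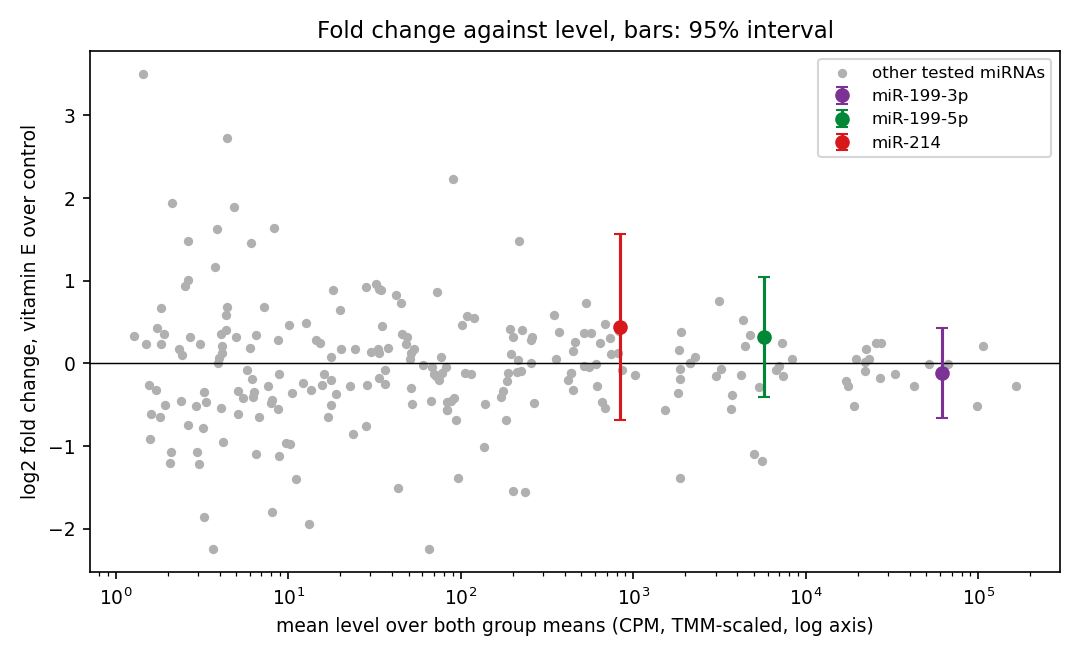
Log2 fold change of vitamin E over control (y axis) against the mean of both group means (x axis, CPM, log scale) for the 238 tested miRNAs in grey and the 3 members in colour, with 95% intervals. The members span the upper part of the abundance range, and each interval crosses 0.

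Among the 3, the rarer the miRNA, the wider its spread within groups, with both groups pooled. In the controls alone this order did not hold, since the coefficient of variation was 27.9% for miR-199-3p and 24.3% for miR-199-5p. The within-group SD of log2 CPM was 0.275 for miR-199-3p, 0.432 for miR-199-5p and 0.789 for miR-214, against a median of 0.508 over the tested miRNAs and of 0.351 over the 100 most abundant. Of those 100, 29 had a smaller within-group SD than miR-199-3p, 68 a smaller one than miR-199-5p and 89 a smaller one than miR-214. Within groups miR-214 thus varied more than most of the 100 most abundant miRNAs. Its within-group SD was 0.584 without control 1, 0.589 without control 2 and 0.825 to 0.911 without any other library. For miR-199-3p the coefficient of variation was 3.74% in the vitamin E libraries and 27.9% in the controls, or 9.57% without control 3, and its within-group SD was 0.0912 without that library. The control libraries also differed more from each other across the miRNAs counted. Their chi-square per degree of freedom, taken pair by pair, was 1260 to 2198, against 368 to 605 among the vitamin E libraries. This came with control 1 and control 3, which were also far from the vitamin E libraries, at 1150 to 1720. Control 2 was nearer to the vitamin E libraries, at 346 to 702, than to the other controls, at 1260 and 1384.

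The balance of the miR-199 arms was read from counts within each library, which needs no scaling factor. Because the rows do not tell the miR-199 genes apart, each arm may pool reads of more than 1 hairpin. A read covers a mature miRNA whole, so no length enters. A ratio of 2 miRNAs is still one of reads and includes how well each sequence is captured. The 3p arm outnumbered the 5p arm 8.34-fold, 13.6-fold and 7.88-fold with vitamin E, and 9.39-fold, 9.35-fold and 22.6-fold in the controls. Control 3 stood apart from the other 5 libraries, with the most miR-199-3p and the least miR-199-5p. The rows of the arms thus did not keep a fixed ratio from library to library. Whether the arms of any 1 hairpin did so cannot be read from them.

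The log2 ratio of 5p to 3p averaged -3.27 ± 0.43 with vitamin E against -3.65 ± 0.73 in control (SD, n = 3). The difference of 0.38 was smaller than the spread between libraries (two-sided exact permutation p = 0.5, where 3 against 3 cannot go below 0.1; Benjamini-Hochberg adjusted over 7 ratios and shares, 0.875). Without control 3 it was -0.042.

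Other hairpins of the tissue, taken by the name that their arms share, were read in the same way. Both arms reached at least 10 counts in every library for 44 hairpins, and the 5p arm was the more abundant one in 34 of them and the 3p arm in 10, miR-199 included. The range of the log2 arm ratio over the 6 libraries was 1.52 for miR-199 and 1.38 at the median of the 44, and 26 hairpins had a smaller range than miR-199. The groups did not overlap in arm ratio for 4 of the 44 (9.09%), and miR-199 was not among them. By the size of its difference between groups it ranked 24 of the 44.

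**Figure D3:**
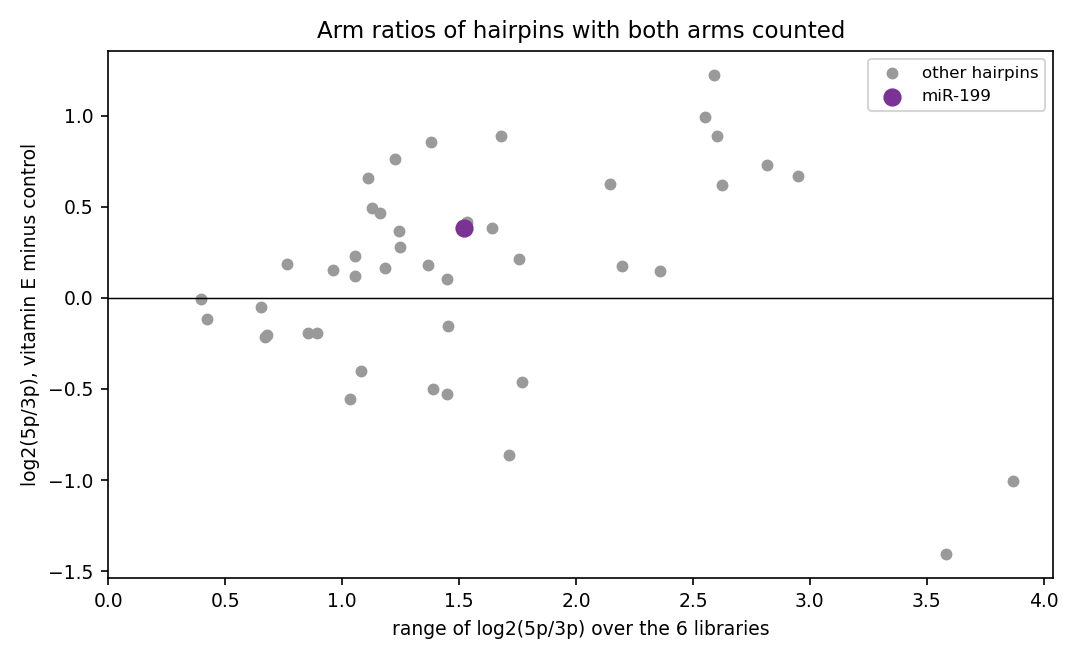
Difference in the mean log2 ratio of 5p to 3p counts between vitamin E and control (y axis) against the range of that ratio over the 6 libraries (x axis) for 44 hairpins, with miR-199 in colour. miR-199 lies at a range of 1.52 and a difference of 0.38, amid the other hairpins.

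miR-214 did not follow miR-199 closely either, although MIR214 and MIR199A2 are neighbours. There were 8.01, 6.44 and 5.83 reads of miR-199-5p for each read of miR-214 with vitamin E, and 5.10, 17.6 and 6.18 in the controls. Control 2 was the library apart, and the other 5 lay between 5.10 and 8.01. Its miR-199-5p share, 0.543%, was the middle of the range, so the low ratio in control 2 came with low miR-214. The log2 ratio of miR-214 to miR-199-5p was -2.74 ± 0.23 with vitamin E against -3.04 ± 0.96 in control (SD, n = 3; two-sided exact permutation p = 0.9). The difference of 0.29 became -0.26 without control 2.

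Against the abundant arm the spread was wider. There were 66.8, 87.8 and 46.0 reads of miR-199-3p per read of miR-214 with vitamin E and 47.9, 164 and 140 in control. Control 1 lay with the vitamin E libraries, and control 2 and control 3 lay apart. The log2 ratio of miR-214 to miR-199-3p was -6.01 ± 0.47 with vitamin E against -6.69 ± 0.97 in control (SD, n = 3; two-sided exact permutation p = 0.3, adjusted 0.875). Its difference of 0.67 stayed above 0 when any 1 library was left out, between 0.34 without control 2 and 1.23 without control 1.

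**Figure D4:**
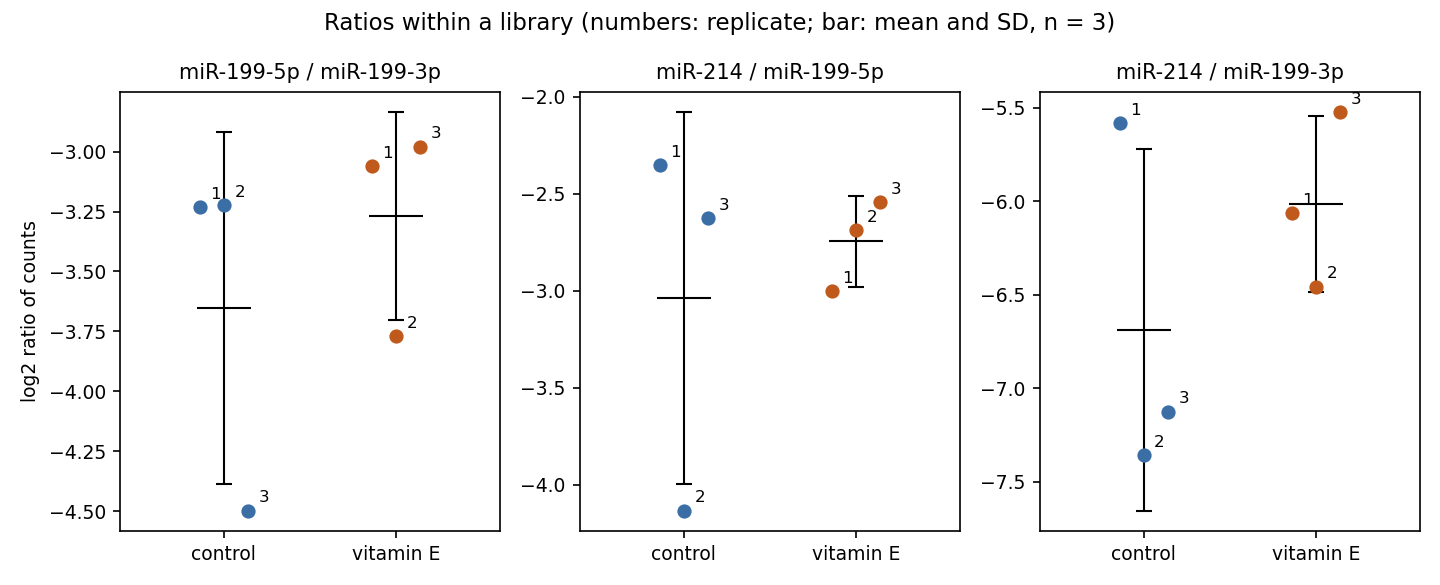
Log2 ratio of counts within a library (y axis) for each pair of the 3 miRNAs, by group (x axis), with replicate numbers, mean and SD. Control 3 is lowest for the arms of miR-199, at -4.50, and control 2 for miR-214 over miR-199-5p, at -4.13.

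Across the 6 libraries no pair of the 3 miRNAs was tied closely in level (log2 CPM, 3 pairs, exact permutation tests). Between the miR-199 arms Pearson's r was -0.46 (exact permutation p = 0.397) and Spearman's rho 0.086 (exact permutation p = 0.919). Leaving out the farthest libraries in miR-199-3p, control 2 and control 3, turned r to 0.85 over 4 libraries. Without control 3 alone r was 0.53, and without control 2 alone it was -0.57, so the sign rested on control 3. Between miR-199-5p and miR-214 r was 0.56 (exact permutation p = 0.251) and rho 0.77 (exact permutation p = 0.103), with r = 0.79 without vitamin E 2 and control 3 and 0.89 without control 2. Between miR-199-3p and miR-214 r was 0.18 (exact permutation p = 0.760) and rho 0.37 (exact permutation p = 0.497), with r = 0.68 without control 2 and control 3, 0.94 without control 3 alone and -0.50 without control 2 alone. After Benjamini-Hochberg adjustment over the 3 pairs the permutation p ranged from 0.596 to 0.760 for r and from 0.308 to 0.919 for rho.

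The miRNAs whose pattern over the 6 libraries was most like each member were different for each of the 3. They are the highest of 235 correlations of log2 CPM for each member, given as a description, and the libraries share their depth and composition. For miR-199-3p they were miR-460a-5p (Pearson's r = 0.96), the predicted novel_95 (0.87) and miR-140-3p (0.84), a miRNA of cartilage. miR-140-3p stood at 2710, 2931 and 2962 CPM with vitamin E and at 2383, 2845 and 4303 CPM in control, and like miR-199-3p it was highest in control 3.

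For miR-199-5p the most alike were miR-2188-5p (r = 0.95), miR-34a-3p (0.95), the lesser arm of a miRNA induced by p53, and miR-10a-5p (0.94), whose gene lies among Hox genes. miR-10a-5p stood at 124523, 86605 and 128673 CPM with vitamin E and at 109737, 93840 and 90909 CPM in control. It was highest in vitamin E 3 and vitamin E 1, as miR-199-5p was, but lowest in vitamin E 2. For miR-214 they were miR-30e-3p (r = 0.91), the predicted novel_124 (0.86) and miR-196-5p (0.85), also a Hox cluster miRNA. miR-196-5p stood at 306, 93.5 and 270 CPM with vitamin E and at 282, 83.3 and 172 CPM in control, lowest in control 2 like miR-214.

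The libraries that stood apart were also at an end of some marker sums, but so were other libraries. These sums are on library totals, while the members' levels are on TMM-scaled sizes. TMM factors ran from 0.860 in control 1 to 1.05 in vitamin E 3, so the library at an end can differ between the scales. Control 3, highest in miR-199-3p and lowest in miR-199-5p, had the lowest erythroid sum, 1452 CPM over 3 rows against 2825 to 5580 in the other libraries. On library totals it was at an end of none of the other sums. Control 2, lowest in miR-214, had the highest leukocyte sum, 51251 CPM over 10 rows against 29714 to 42831, and the highest miR-122 sum, 20.9 CPM against 5.30 to 13.3. Much of that leukocyte sum was its most abundant row, miR-146c-5p, at 31147 CPM in control 2 against 15361 to 23619 elsewhere. Not all leukocyte rows followed the sum, since miR-146a-3p was lowest of the controls in control 2, at 80.4 CPM against 129 and 137. Control 2 also had the highest epithelial sum, 433 CPM against 279 to 416, and the lowest striated muscle sum, 278 CPM against 304 to 612. In control 2 miR-205b stood at 230 CPM, against 12.8 to 48.6 elsewhere. The most abundant epithelial row, miR-200a-3p, stood at 88.3 CPM there, against 79.0 to 162 elsewhere, so not all epithelial rows followed the sum. Control 1 had the lowest leukocyte and epithelial sums, 29714 and 279 CPM, and the highest miR-126 sum, 30537 CPM. Vitamin E 3 had the highest erythroid sum, 5580 CPM, and the lowest miR-126 sum, 22004 CPM. The defining smooth muscle markers miR-143 and miR-145 had no row, and miR-490 stood highest in vitamin E 3, at 12.6 CPM over both arms against 1.80 to 3.81 elsewhere. No row of these lists was at 0 in all 6 libraries. The part of these markers in the values of miR-199 and miR-214 was not tested.

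Other miRNAs described in fibroblasts and related mesenchymal cells gave no call either. The list of 18 such miRNAs had rows for 16 of them, and 26 rows were tested, 13 with a log2 fold change above 0 and 13 below. None passed over all miRNAs tested (edgeR, Benjamini-Hochberg), and 1, miR-22-5p, had an unadjusted p under 0.05 (3.85%, against 7.56% of all tested miRNAs). The median log2 fold change of the list was 0.02, beside -0.07 over all 238. miR-152 and miR-222 had no row by these exact names. Under lettered names, left out of the list, miR-222a had a log2 fold change of -1.39 (SE 0.68; edgeR adjusted p = 0.627). miR-222b-3p had 0.40 (SE 0.54; edgeR adjusted p = 0.842), and for both the groups overlapped. In both groups the rows of the list, tested or not, were a large part of the libraries, with sums of 272860 to 288668 CPM in control and 283980 to 338458 with vitamin E. On library totals, which these sums use, the lowest was that of control 2 and the highest that of vitamin E 3. The TMM factor was 0.860 for control 1 and 1.01 to 1.05 for the vitamin E libraries. The order and the group ranges can therefore differ on TMM-scaled sizes.

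The groups did not overlap for 3 of the 26 rows (11.5%, against 13.9% of all tested). These 3 were named after their values were seen. miR-22-5p, the lesser arm of the abundant miR-22, stood at 42.6, 36.4 and 55.1 CPM with vitamin E and at 28.4, 17.6 and 26.4 CPM in control (log2 fold change 0.89, SE 0.38; edgeR adjusted p = 0.605). miR-100-3p stood at 23.5, 25.0 and 24.3 CPM against 8.54, 20.8 and 17.1, higher in every vitamin E library. miR-27b-3p, studied in mammals as an inhibitor of fat cell differentiation, stood at 3321, 3099 and 3313 CPM against 3766, 3930 and 4968 in control, lower in every vitamin E library (edgeR adjusted p = 0.720). miR-10a-5p, the most abundant of the list, had a log2 fold change of 0.21 (SE 0.22). miR-490-3p, the 1 tested row of the smooth muscle list, stood at 2.53, 1.89 and 11.4 CPM against 2.09, 1.98 and 2.89, so that its log2 fold change of 1.16 (SE 0.72) came with a single high library, vitamin E 3.

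**Figure D5:**
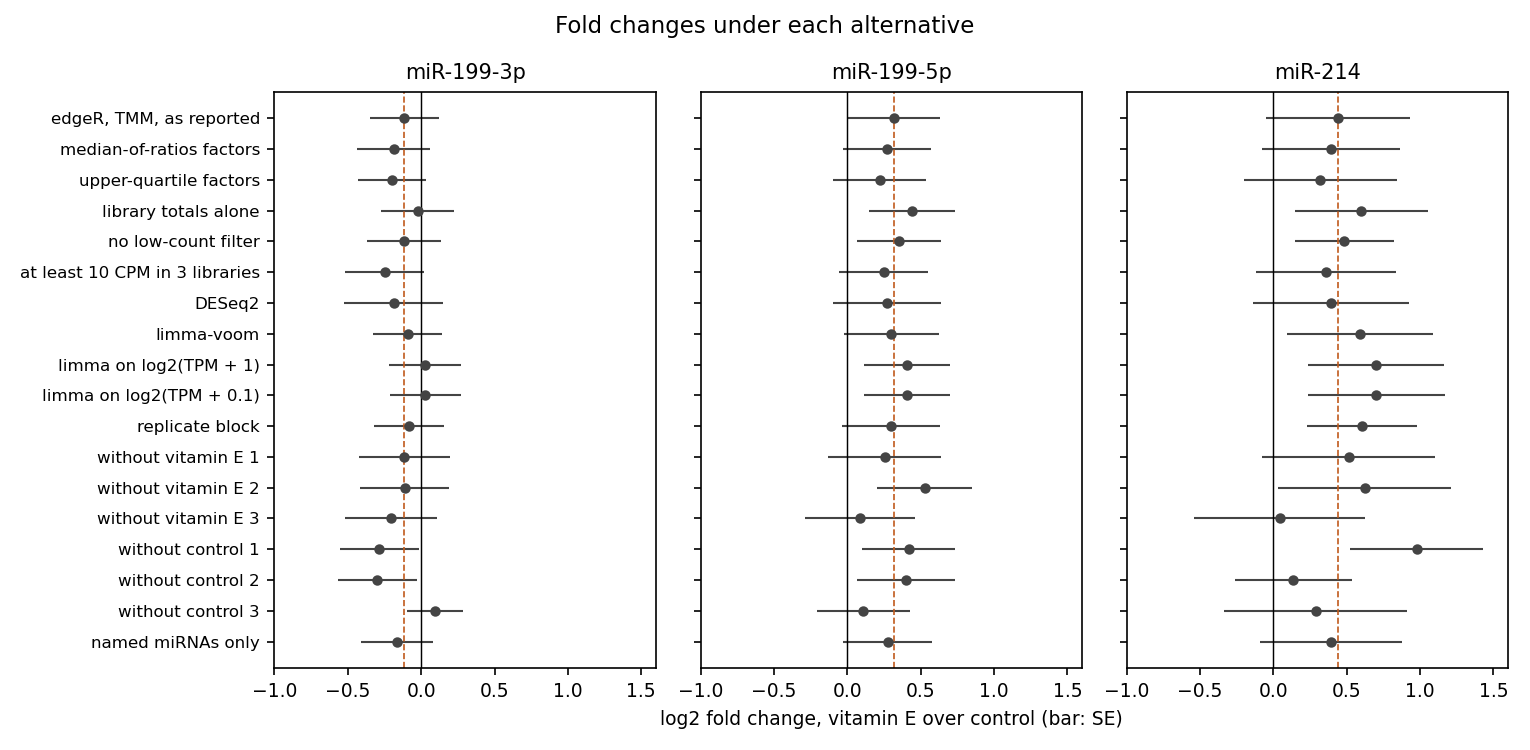
Log2 fold change of vitamin E over control with its SE (x axis) for each member under the reported fit and 17 alternatives (y axis); the dashed line marks the reported value. miR-199-5p and miR-214 lie above 0 in each fit, and miR-199-3p changes side in 3 of them.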

How the data were processed

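Per the file headers, the authors gave each mature miRNA a raw read count in each library and a TPM. In the deposited table each TPM column is its count column brought to a sum of 1e+06, without regard to length. The sources used here give no aligner, counting rule, miRNA reference, genome build or library kit.

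Counts were compared with edgeR 4.0.16 in R 4.3.3: TMM factors, filterByExpr (minimum count 10, minimum total 15), the robust quasi-likelihood F test on all 238 miRNAs that passed (429 did not), and Benjamini-Hochberg adjustment with a threshold of 0.05. The fit was tested on simulated counts. These had less scatter than the data as a whole and larger fold changes than the members, so that test does not cover differences of their size. CPM is on TMM-scaled library sizes except for sums over lists, which use library totals, and correlations use log2 CPM with a prior count of 1. Ratios and shares of counts were compared by two-sided exact permutation over 20 relabellings. Shares carry 95% Wilson intervals where given, which cover counting error only. A count of 0 would allow up to 3 counts, 0.408 to 0.597 CPM by library.

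The members and lists were chosen with earlier results of these data known. Named are the members, every miRNA past the threshold, the most abundant and the smallest-p row of the mesenchymal and smooth muscle lists, and the 3 miRNAs most correlated with each member. Outside this rule, miR-100-3p, miR-27b-3p, miR-222a, miR-222b-3p, miR-29a-3p, miR-29c-3p, miR-219a and miR-219b were named after their values were seen. So were marker rows named beside the sums. A planned grouping by shared seed was not made, because no sequences were used. The gene table of GRCg7b served only for which genes neighbour each other. Alternatives covered other scaling factors and filters, DESeq2 1.42.0, limma 3.58.1 (voom, and log2(TPM + 1) and log2(TPM + 0.1)), leaving out single libraries, a block for the replicate number, and named miRNAs only. The closest pair of libraries had a chi-square of 346 per degree of freedom, so no library is a copy of another. Whether libraries came from the same bird or pool cannot be read from it.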

Additional observations from a re-analysis of the deposited data

How the results depend on the processing

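None of the 3 miRNAs was called in any of 17 alternative fits (adjusted p from 0.541 to 0.992, Benjamini-Hochberg, in edgeR, DESeq2 or limma). miR-199-5p and miR-214 stayed above 0 in all 17. miR-199-3p turned from -0.12 to 0.027 in both limma fits on TPM and to 0.095 without control 3. For each miRNA in both fits, the shift is its log2 fold change less that of the reported fit. The median of these shifts was 0.129 and 0.132 in those limma fits, and 0.107 with library totals alone. Relative to these median shifts miR-199-3p was at -0.10, -0.11 and -0.13, and miR-214 at 0.57, 0.57 and 0.49. Without control 3 the median shift was -0.102, and miR-199-3p was at 0.20 relative to it, so miR-199-3p stayed above 0 there. Leaving out 1 library gave -0.30 to 0.095 for miR-199-3p, 0.088 to 0.53 for miR-199-5p and 0.042 to 0.98 for miR-214. The count of called miRNAs, 1 as reported, was 0 with upper-quartile factors (18 with unadjusted p under 0.05 in edgeR), 8 without the filter, 7 with DESeq2, 3 with limma on log2(TPM + 1), 5 with the replicate block and 0 to 1 without 1 library (11 to 31 with unadjusted p under 0.05); the cause was not tested.

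Leaving out 1 library gave differences in log2 ratio of -0.042 to 0.63 for the miR-199 arms, -0.26 to 0.64 for miR-214 over miR-199-5p and 0.34 to 1.23 for miR-214 over miR-199-3p. For shares of counts, in percentage points, it gave -0.75 to 1.14 for miR-199-3p, 0.093 to 0.28 for miR-199-5p, 0.013 to 0.053 for miR-214 and -0.50 to 1.29 for their sum, which was -0.17 over named miRNAs only.

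Libraries with the same number did not move together around their group means (correlations -0.15, 0.08 and -0.01), so no pairing by number was visible there. These values cannot exclude one, and the closest libraries by chi-square were vitamin E 2 and control 2 (346 per degree of freedom). With the replicate block log2 fold changes were -0.08 for miR-199-3p, 0.30 for miR-199-5p and 0.60 for miR-214. Ratios paired by number had sign-flip p of 0.5 to 0.75 (exact). With only 3 pairs, the floor of that p is higher than that of the unpaired permutation p. With 3 libraries a group and 20 relabellings, no unpaired permutation p of a ratio or share could go below 0.1. Leaving out 1 library, added after the data were seen, gave Pearson's r of -0.63 to 0.53 between the miR-199 arms, 0.36 to 0.89 between miR-199-5p and miR-214 and -0.50 to 0.94 between miR-199-3p and miR-214.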
